A study of Homo sapiens with 10 samples.

Results

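Chromosome 20 carried 1186 of the 131858 peak summits in 3 summit lists, and they were taken as every entry placed on that chromosome in each list. Of these, 441 came from precipitation of WDR5 in wild-type (WT) cells, 618 from precipitation of WDR5 in EMBOW knockout (KO) cells and 127 from precipitation of tagged EMBOW (called EMBOW-F here). The whole lists hold 17660, 21055 and 93143 summits. The chromosome was chosen because its ratio of KO to WT summit numbers, 1.40, was the highest of the 23 chromosomes 1 to 22 and X, ahead of chromosome 13 at 1.37 and chromosome 3 at 1.35. That ratio is therefore a description, and so is every KO to WT comparison that follows.

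All cells were HEK293T, a human embryonic kidney line with an SV40 large T antigen gene, so each group shares that background. The WT group was unmodified HEK293T and the KO group was HEK293T without EMBOW, and both were precipitated with the same anti-WDR5 antibody. The third group was HEK293T that stably expressed EMBOW-FH, precipitated on anti-FLAG beads, so its EMBOW came from an introduced copy. The labels do not say whether the KO or the EMBOW-FH cells were 1 clone. Each group was 1 library made from nuclei digested with micrococcal nuclease, an enzyme that cuts the DNA between nucleosomes. No comparison has a replicate check, no p-value was computed, and every interval below is a 95% interval that covers counting error only, exact (Clopper-Pearson) except for quotients of 2 ratios, where it is a log-normal approximation. Each summit carries a −log10 q value, the peak caller's own score in the authors' lists, used here only to describe, rank or filter summits within a list, because scores and ranks from lists of different length show no change. The lists hold neither coverage nor expression, so the knockout itself and the depth of each library could not be checked in them.

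WDR5 is a WD40-repeat protein and a core subunit of the COMPASS (MLL and SET1) complexes, which methylate lysine 4 of histone H3 at the start sites of active genes. It is also known to be present on the mitotic spindle and at the midbody during division. EMBOW is a microprotein, a product of a short open reading frame, that binds WDR5. The study asked how EMBOW bears on the chromatin and mitotic roles of WDR5 in the cell cycle, and chromosome 20 holds genes of both kinds, among them the spindle genes TPX2, AURKA and MAPRE1 and the replication gene PCNA.

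Promoters are shown first for genes whose ends held a WDR5 summit in a single genotype, and then for genes with the highest-ranked summits shared by both. Each runs from 250 bases before to 50 bases after an annotated start (RefSeq, GRCh38.p14), 5′ to 3′ in the direction of transcription, and capitals mark matches to a searched motif on either strand. The motifs were the E-box CACGTG, the ETS core CCGGAAG, the CCAAT box, the cell cycle gene homology region (CHR) TTTGAA and the palindromic NRF1 motif, and no 2 matches overlapped in these sequences. TPX2 and AURKA have no entry in the promoter table and are named only. MAPRE1 lies on the plus strand at chr20:32819704-32820003 and CHMP4B on the plus strand at chr20:33811098-33811397. SNX21 lies on the plus strand at chr20:45833549-45833848, and these 3 had a gene-end summit in KO and none in WT.
MAPRE1: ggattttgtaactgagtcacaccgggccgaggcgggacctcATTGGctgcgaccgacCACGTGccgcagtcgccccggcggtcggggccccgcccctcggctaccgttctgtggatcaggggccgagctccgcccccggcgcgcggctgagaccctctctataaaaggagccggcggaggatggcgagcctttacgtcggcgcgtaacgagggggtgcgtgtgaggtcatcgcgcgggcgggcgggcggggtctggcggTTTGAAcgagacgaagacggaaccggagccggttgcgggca
CHMP4B: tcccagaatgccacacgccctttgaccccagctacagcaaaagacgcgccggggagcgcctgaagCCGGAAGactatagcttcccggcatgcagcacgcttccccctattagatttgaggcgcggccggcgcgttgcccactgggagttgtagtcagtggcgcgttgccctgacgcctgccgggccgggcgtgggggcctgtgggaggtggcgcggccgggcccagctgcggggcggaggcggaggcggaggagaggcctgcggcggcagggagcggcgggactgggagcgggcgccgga
SNX21: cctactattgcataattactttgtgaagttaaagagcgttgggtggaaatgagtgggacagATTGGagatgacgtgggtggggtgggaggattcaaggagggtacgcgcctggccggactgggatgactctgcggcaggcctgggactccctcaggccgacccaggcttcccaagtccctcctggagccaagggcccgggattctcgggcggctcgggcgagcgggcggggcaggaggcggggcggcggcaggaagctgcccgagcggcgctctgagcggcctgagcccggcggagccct

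RAE1, on the plus strand at chr20:57351292-57351591, was marked at its end in WT and not in KO, and its promoter held none of the 5 motifs. SNRPB (minus strand, chr20:2470740-2471039), BCL2L1 (minus strand, chr20:31723914-31724213) and SPATA2 (minus strand, chr20:49915480-49915779) carried the highest-ranked summits shared by both genotypes at gene ends, and each held 1 ETS core.
RAE1: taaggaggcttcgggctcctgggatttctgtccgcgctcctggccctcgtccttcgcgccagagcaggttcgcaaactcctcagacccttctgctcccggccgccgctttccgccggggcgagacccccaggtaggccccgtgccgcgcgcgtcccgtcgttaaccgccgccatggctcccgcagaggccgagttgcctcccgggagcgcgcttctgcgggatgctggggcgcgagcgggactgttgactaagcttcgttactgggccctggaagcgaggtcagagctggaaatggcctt
SNRPB: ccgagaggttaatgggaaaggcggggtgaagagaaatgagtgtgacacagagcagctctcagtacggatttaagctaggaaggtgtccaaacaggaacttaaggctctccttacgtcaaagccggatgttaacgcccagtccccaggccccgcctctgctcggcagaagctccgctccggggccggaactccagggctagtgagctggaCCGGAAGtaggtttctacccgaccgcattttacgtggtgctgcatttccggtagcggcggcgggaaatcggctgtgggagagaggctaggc
BCL2L1: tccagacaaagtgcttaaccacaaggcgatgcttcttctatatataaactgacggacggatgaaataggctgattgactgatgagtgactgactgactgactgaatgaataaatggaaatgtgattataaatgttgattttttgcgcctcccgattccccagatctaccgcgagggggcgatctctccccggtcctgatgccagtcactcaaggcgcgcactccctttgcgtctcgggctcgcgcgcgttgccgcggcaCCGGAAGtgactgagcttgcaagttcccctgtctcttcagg
SPATA2: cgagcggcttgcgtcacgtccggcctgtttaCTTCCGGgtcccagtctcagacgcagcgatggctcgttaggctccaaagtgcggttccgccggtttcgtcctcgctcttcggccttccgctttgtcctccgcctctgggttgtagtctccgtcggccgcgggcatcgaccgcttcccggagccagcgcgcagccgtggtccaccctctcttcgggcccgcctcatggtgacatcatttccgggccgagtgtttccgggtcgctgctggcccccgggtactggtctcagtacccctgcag

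Over all 22199 promoters of the table, the E-box was found in 8.34%, the ETS core in 12.8%, the CCAAT box in 34.7%, the CHR in 12.4% and the NRF1 motif in 1.5%. The 512 promoters of chromosome 20 held them in 8.79%, 17.4%, 30.9%, 10.7% and 2.73%. Among the 259 chromosome 20 promoters with a WDR5 summit nearby in both genotypes the ETS core was in 70 (27.0%), and among the 208 with none in either it was in 11 (5.29%). The CHR was in 6 of the 31 promoters with a KO summit and no WT summit (19.4%, 7.45 to 37.5%), in 18 of the 259 with both (6.95%) and in 31 of the 208 with neither (14.9%). Over all chromosomes the CHR was in 8.68% of promoters with a KO summit and no WT summit and in 7.57% of those with both. Promoters with summits in both genotypes had a median GC content of 69.0%, against 56.7% for those with neither. Between these 2 classes the GC-rich ETS core was thus more frequent where GC content was higher and the AT-rich CHR less frequent. Promoters with a KO summit and no WT summit did not follow this for the CHR. Their median GC content was 66.3%, yet their CHR share was above that of promoters with neither, although its interval is wide. The part of base composition in these shares was not tested.

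Along the chromosome the KO excess lay mostly on the long arm. The largest interval without a protein-coding gene, 5.12 Mb between ZNF337 and LOC124904970 (chr20:25696854-30813426), was taken as the boundary region, and its middle divides the 2 arms here. The short arm held 135 WT and 160 KO summits, a ratio of 1.19 (0.937 to 1.5). The long arm held 306 and 458, a ratio of 1.5 (1.29 to 1.74). All other chromosomes together had 17214 and 20435, a ratio of 1.19 (1.16 to 1.21).

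So 152 of the 177 additional KO summits, or 85.9%, were on the long arm, which holds 357 of the chromosome's 537 protein-coding genes. The long arm's ratio was 1.26 times (1.09 to 1.46) that of the other chromosomes, and the short arm's was 0.998 times (0.793 to 1.26). The quotient of the 2 arms' own ratios was 1.26 (0.963 to 1.66), an interval that includes 1. That interval treats the WT and KO counts as independent, although many summits lie at sites shared by both lists. It therefore cannot decide whether the arms differed over all summits.

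**Figure D1:**
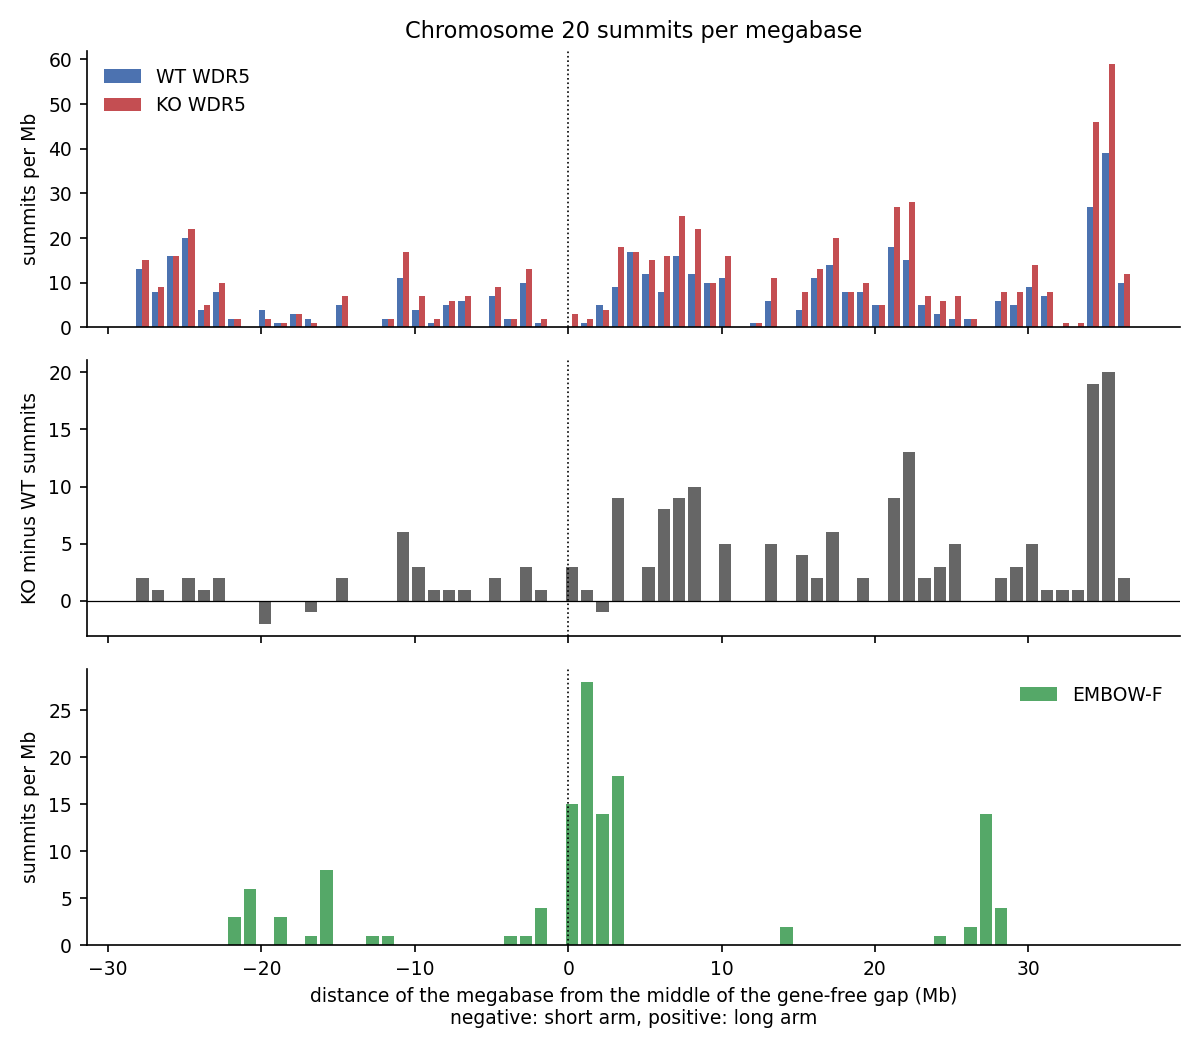
Summits per 1 Mb of chromosome 20, with the distance of each megabase from the middle of the gene-free gap on the horizontal axis (negative, short arm; positive, long arm). The top panel gives WT and KO WDR5 summits, the middle panel the KO number minus the WT number, and the bottom panel EMBOW-F summits; the middle panel's highest bars are the megabases from 62 to 64 Mb, and EMBOW-F is highest in the megabase from 29 Mb, inside the gap, with 28 summits.

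By megabase, the excess in the full lists was not limited to a few places. Of the 65 megabases, 56 held a WDR5 summit, and 41 of these (73.2%, 59.7 to 84.2%) had more KO than WT summits, 12 had equal numbers and 3 had more WT summits. On the other chromosomes together 1456 of 2545 occupied megabases (57.2%) had more KO summits. By chromosome this share ran from 37.7% on chromosome 18 to 75.4% on chromosome 19, which was above chromosome 20. Chromosomes 13 and 14 had 69.7% and 69.2%, so the share was not particular to chromosome 20. With the KO list shortened by score to the length of the WT list the chromosome 20 share was 55.4% (41.5 to 68.7%), so it depends on list length. The long arm had more KO summits in 27 of 34 megabases and the short arm in 14 of 22.

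The 3 megabases with more WT summits were those that begin at 8 Mb (4 WT and 2 KO), 11 Mb (2 and 1) and 30 Mb (5 and 4). No chromosome 20 megabase had a KO share whose own interval excluded the share of the whole chromosome, so no single megabase stood apart by that measure. These intervals also treat the WT and KO counts as independent.

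The largest differences were in the gene-dense end of the long arm. The megabase from 63 Mb held 39 WT and 59 KO summits, and that from 62 Mb held 27 and 46. Next came the megabase from 50 Mb with 15 and 28, that from 36 Mb with 12 and 22 and that from 31 Mb with 9 and 18, the last tied with others at the same difference. These 5 megabases gave 71 of the 177 additional summits (40.1%) and held 26.0% of the WT and KO summits. Across the 56 megabases the difference went with the WT number (Pearson's r 0.737, Spearman's rho 0.515), although both contain the same WT library.

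In 10 Mb segments the ratio was 1.08 (0.780 to 1.49) over the first 10 Mb, from 76 WT to 82 KO summits. It was between 1.37 and 1.43 in each of the 4 segments from 10 to 50 Mb. Those from 10 to 20 Mb (1.39, 0.835 to 2.35) and from 20 to 30 Mb (1.375, 0.852 to 2.24) lie wholly or mostly on the short arm. The low ratio of the short arm thus lay mainly in its first 10 Mb. From 50 to 60 Mb the ratio was 1.63 (1.15 to 2.33), where 54 WT and 88 KO summits lay. Beyond 60 Mb it was 1.57 (1.16 to 2.12), where there were 76 and 119. Among 259 segments of the other chromosomes with at least 50 summits the median ratio was 1.19, and 26 of them reached that of the long arm. Without 62 to 64 Mb the long arm still had 240 WT and 353 KO summits, a ratio of 1.47.

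The excess was uneven in a second way, which was looked for after the arm values had been seen. Within 1 kb of either end of a protein-coding gene, chromosome 20 had 307 WT and 345 KO summits, a ratio of 1.12 (0.961 to 1.32), beside 1.08 on the other chromosomes. Farther than 1 kb from any gene end it had 134 and 273, a ratio of 2.04 (1.65 to 2.52), beside 1.35 (1.31 to 1.39) elsewhere. Chromosome 20 was first of 23 chromosomes in the latter ratio, followed by chromosome 3 at 1.84 (1.59 to 2.12), and number 8 in the former.

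The arms had similar ratios at gene ends and unequal ones away from them. At gene ends the short arm went from 94 WT to 108 KO summits (1.15) and the long arm from 213 to 237 (1.11, 0.921 to 1.35). Away from gene ends the short arm went from 41 to 52, a ratio of 1.27 (0.826 to 1.96). The long arm went from 93 to 221, a ratio of 2.38 (1.86 to 3.06). The quotient of these last 2 ratios was 1.87 (1.16 to 3.02) in the full lists, where its interval lay above 1. Of the 152 additional long-arm KO summits, 128 lay over 1 kb from a gene end.

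**Figure D2:**
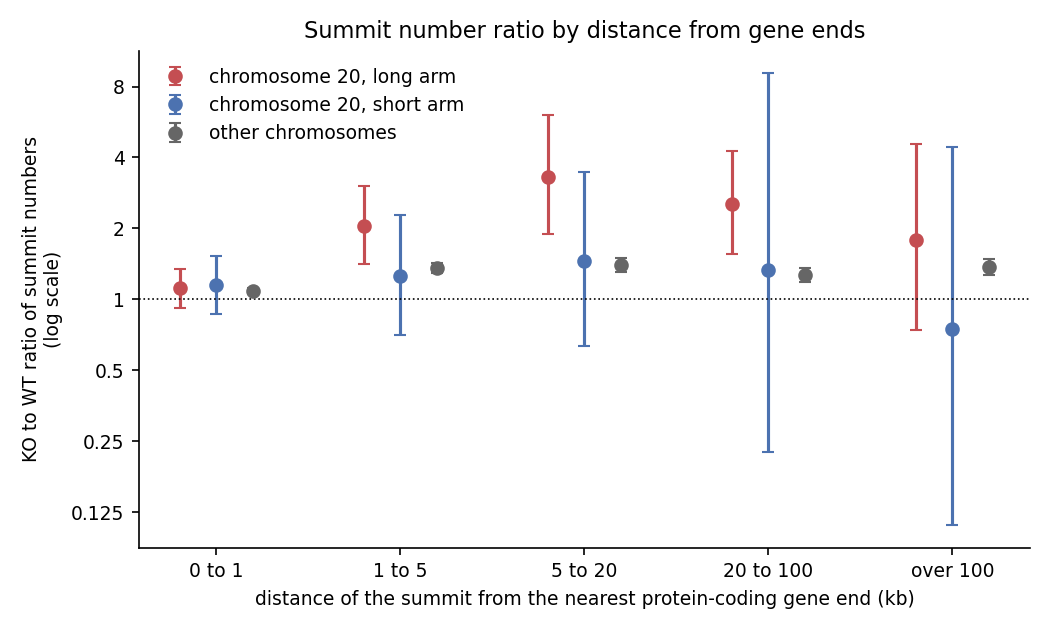
Ratio of KO to WT WDR5 summit numbers (log axis) by distance from the nearest protein-coding gene end, for the long arm, the short arm and all other chromosomes, with exact 95% intervals. The long arm is at 1.11 within 1 kb and at 3.29 between 5 and 20 kb, and the other chromosomes stay between 1.08 and 1.39.

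The long-arm ratio was 2.05 between 1 and 5 kb from a gene end (43 WT and 88 KO summits). It was 3.29 (1.89 to 6.05) between 5 and 20 kb, from 17 to 56 summits. Between 20 and 100 kb it was 2.54, from 24 to 61, and beyond 100 kb it was 1.78, from 9 to 16. The same bins on the other chromosomes gave 1.36, 1.39, 1.27 and 1.37.

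Inside genes the long arm had 56 WT and 132 KO summits, a ratio of 2.36 (1.71 to 3.28), and between genes it had 28 and 73, a ratio of 2.61. On the short arm the corresponding numbers were 32 and 44, and 6 and 5. Ends of non-coding genes accounted for few of these sites, since 31 of the 221 long-arm KO summits away from gene ends (14.0%) and 17 of the 93 WT summits (18.3%) lay within 1 kb of an end of a non-coding gene. At a q of 1e-05 or less the long arm had 37 WT and 71 KO summits away from gene ends, a ratio of 1.92 (1.27 to 2.94). The short arm had 21 and 28 at that q, a ratio of 1.33 (0.730 to 2.47). The quotient of the 2 arms' ratios was then 1.44 (0.721 to 2.87), an interval that includes 1.

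**Figure D3:**
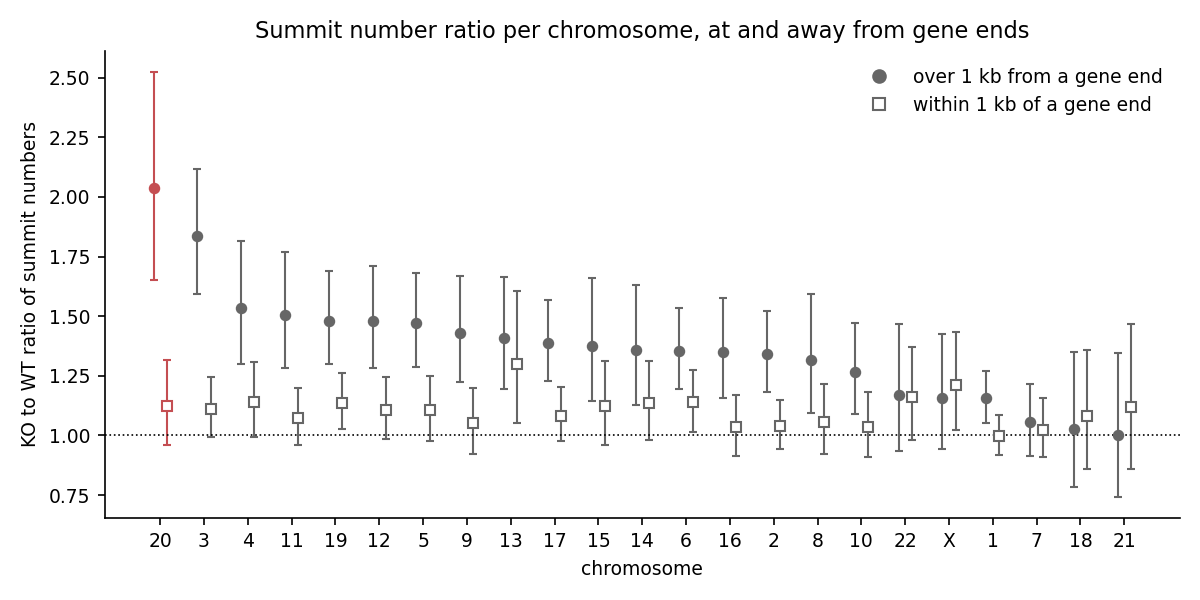
Ratio of KO to WT WDR5 summit numbers per chromosome with exact 95% intervals, over 1 kb from a gene end (filled circles) and within 1 kb of one (open squares), chromosome 20 in red and chromosomes ordered by the first ratio. Chromosome 20 is highest away from gene ends at 2.04 and is at 1.12 near them.

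The excess away from gene ends also held across the long arm rather than at 1 place. From 30 to 40 Mb the numbers were 29 WT and 61 KO, from 40 to 50 Mb 21 and 42, from 50 to 60 Mb 16 and 50, and beyond 60 Mb 26 and 63. These ratios of 2.10, 2.0, 3.13 and 2.42 stood at places 18, 23, 3 and 8 among 214 segments of all chromosomes with at least 30 such summits. The first 10 Mb of the short arm, with 26 and 28, stood at place 171. They held most of the short arm's 41 WT and 52 KO summits away from gene ends. The segments from 10 to 30 Mb had fewer than 30 such summits each and were not placed, so that place does not stand for the whole arm. The first 2 places were both on chromosome 3, from 80 to 90 Mb (4 WT and 26 KO) and from 70 to 80 Mb (7 and 27).

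The lists were then paired site by site. With a partner defined as a summit of the other genotype within 500 bp, 345 KO summits had a WT partner at a median distance of 58 bp, and 155 of them lay within 50 bp. No WT partner was found for 273 KO summits (44.2%, 40.2 to 48.2%), beside 40.4% over all chromosomes. As equal numbers of both lists were paired, the unpaired summits carry the whole difference of 177 by construction. On the long arm 226 of 458 KO summits had none (49.3%, 44.7 to 54.0%), and on the short arm 47 of 160 (29.4%, 22.5 to 37.1%). No KO partner was found for 96 WT summits (21.8%, 18.0 to 25.9%), beside 28.7% over all chromosomes.

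Unpaired KO summits were often far from any WT summit. Of the 273, 57 lay between 500 bp and 1 kb from the nearest WT summit and 71 between 1 and 5 kb. A further 47 lay between 5 and 20 kb, 70 between 20 and 100 kb and 28 beyond that. Of the 96 unpaired WT summits, 48 and 24 lay in the first 2 ranges, and 24 lay over 5 kb from any KO summit.

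Long-arm summits that were both over 1 kb from a gene end and over 5 kb from a summit of the other genotype numbered 13 in WT and 104 in KO, where all long-arm summits away from gene ends numbered 93 and 221. The short arm had 7 and 8 of the former, and the other chromosomes together had 1486 and 2937. This selection is itself decided by the difference between the lists, so the counts add no support to it.

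Most of the unpaired KO summits away from gene ends were isolated. Chained at gaps of up to 20 kb, the 164 on the long arm formed 121 loci, of which 91 were a single summit and 9 had at least 3. The 27 on the short arm formed 18 loci, of which 15 were single.

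PARD6B, which encodes a cell polarity scaffold, had the most on the long arm. Its gene (chr20:50731580-50753741) held 5 KO summits and no WT summit inside, between 50739264 and 50744329, at −log10 q values up to 5.22. Its end was occupied in both genotypes by 2 summits each, so the difference at PARD6B lay within the gene.

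RBM39, a splicing factor gene (chr20:35701347-35742260), had 4 inner KO summits and no inner WT summit. They were spread over 33441 bp, against 5065 bp at PARD6B, and 2 of the 4 were over 5 kb from a WT summit, against all 5 at PARD6B. Its gene end was marked in both lists, at −log10 q 20.8 in WT and 36.5 in KO.

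GNAS, which encodes the stimulatory G protein alpha subunit, had 2 inner WT and 5 inner KO summits. CHRNA4, a nicotinic acetylcholine receptor subunit gene, had 1 and 4, as did DIDO1, a chromatin regulator gene. B4GALT5, a galactosyltransferase gene, and RIPOR3 each had 0 and 3. The coactivator gene NCOA3, the Hippo pathway kinase gene STK4 and TPX2 each had 0 and 2.

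In all, 92 long-arm genes held an inner summit in either list. KO had more in 63, WT more in 10 and the numbers were equal in 19. Of the 63, 51 had no inner WT summit, and 39 had a gene-end summit in both genotypes. On the short arm KO had more in 16 of 35 genes and WT in 8. These gene counts have no equivalent for the other chromosomes beside them. Summits inside genes were also more numerous in KO there, at 4079 in WT and 5393 in KO, a ratio of 1.32.

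The densest short-arm group spanned the neighbouring genes SNX5, a sorting nexin, and MGME1, a mitochondrial exonuclease, whose ends overlap. Between 17957269 and 17979213, 8 KO summits lacked a WT partner, but only 1 of these was over 5 kb from a WT summit. WT also had inner summits there, 3 in SNX5 against 6 in KO and 3 in MGME1 against 5. This group and PARD6B thus differed in that WT summits were interleaved with the KO summits in the former.

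One distal site lay upstream of MYBL2, a B-MYB transcription factor gene, where a KO summit at 43657718 (−log10 q 15.8, rank 3342) was 9396 bp from the gene end and 9535 bp from the nearest WT summit. The MYBL2 gene end itself held a summit in both lists, at −log10 q 22.7 in WT and 16.1 in KO.

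By gene, the gain was small and spread over both arms. A gene-end summit was present at 284 of 537 chromosome 20 protein-coding genes in WT (52.9%), beside 50% of genes on all chromosomes, and at 309 in KO (57.5%), beside 53.4%. Both genotypes had one at 270 genes. KO had one and WT had none at 39 genes (7.26%, 5.22 to 9.80%), beside 6.99%, and the converse held at 14 genes (2.61%, 1.43 to 4.34%), beside 3.51%. The 39 included 14 of 180 short-arm genes (7.78%) and 25 of 357 long-arm genes (7.0%). The shares with a KO end summit only were thus near the background on both arms. Among summits with a q of 1e-05 or less there were 59 such genes in place of 39, and the 14 WT-only genes became 25 with a window of 500 bp and 5 with a window of 2 kb. The shares given above belong to the main setting, so these other counts have no background beside them.

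The highest-ranked shared summit was at SNRPB. This gene encodes a core protein of the spliceosomal small nuclear ribonucleoproteins (chr20:2461642-2470789, minus strand) and had −log10 q 902 in WT (rank 37) and 673 in KO (rank 56), with the summits 29 bp apart. BCL2L1, the gene of the apoptosis inhibitor BCL-XL, had 112 (rank 119) and 152 (rank 116), 6 bp apart. SPATA2, which encodes an adaptor of the deubiquitinase CYLD, had 68.4 (rank 162) and 83.8 (rank 166), 4 bp apart.

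Those 3 genes therefore had summits at nearly the same base and at similar places in each list. The others in the first 10 were CTSA (lysosomal cathepsin A), YWHAB (a 14-3-3 protein), SLC35H1, SRSF6 (a splicing factor), RPS21 (a ribosomal protein), RALGAPB (a Ral GTPase-activating subunit) and MGME1. Their paired summits were between 3 and 71 bp apart. A second summit of this height, within the bounds of LOC124904958 and over 1 kb from its ends, had −log10 q 614 in WT at 38435193 and 765 in KO at 38435183.

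A KO end summit with the nearest WT summit over 5 kb away was found at 28 genes. They were 18 of the 357 long-arm genes and 10 of the 180 short-arm genes. No share over all chromosomes under this 5 kb rule stands beside the count, so it is a description only. TPX2, which encodes a spindle assembly factor and activator of Aurora A (chr20:31739290-31801800), ranked first. Its summit at 31739437 had −log10 q 18.0 (rank 2614), 147 bp inside the gene end, and the nearest WT summit was 15614 bp away. CHMP4B, a membrane-scission (ESCRT-III) subunit gene, had 14.9 (rank 3707) at 33811460, with the nearest WT summit 51564 bp away. Its KO summit lay 112 bp after the annotated start, beyond the end of the promoter sequence printed above.

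MAPRE1, which encodes the microtubule plus-end protein EB1, had 11.2 (rank 5831) at 32820013, 59 bp after its annotated start and 55285 bp from a WT summit. AURKA, the Aurora A kinase gene, shared its KO summits with its neighbour CSTF1, a polyadenylation factor gene. The higher of them, at 56392703, had 7.86 (rank 8621) and was 33431 bp from a WT summit. All 4 of these mitotic genes lie on the long arm, as do 11 of the 14 mitosis and spindle genes listed below.

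The other KO-only genes had a wide range of roles. SNX21 had −log10 q 12.5 and ZHX3, a zinc finger and homeobox gene, had 10.5. DYNLRB1 (a dynein light chain) had 8.61, UQCC1 (a respiratory complex III assembly factor) had 8.41, and RIMS4 and TTLL9 had 6.98 and 6.86. CDH4 (R-cadherin), NAPB, RAD21L1 (a meiotic cohesin subunit), HRH3 (the histamine H3 receptor) and PIGU (a GPI transamidase subunit) lay between 6.07 and 4.93. Of these 15 only NAPB and RAD21L1 are on the short arm, and DUSP15 shares the TTLL9 summit.

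The converse, a WT end summit over 5 kb from any KO summit, held for 4 genes, all on the long arm, again without a share over all chromosomes. RAE1, an mRNA export and spindle checkpoint factor gene, had −log10 q 9.66 (rank 5675) at 57351430, with the nearest KO summit 39246 bp away. RTF2, a replication termination factor gene, had 6.62, and ELMO2, which acts in Rac signalling, had 5.59. CTNNBL1, which encodes a spliceosome-associated protein, had 5.02 at 37694221, with the nearest KO summit 165770 bp away.

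In the 5 megabases with the largest difference and those with more WT summits, genes with an end summit in a single genotype numbered 8. The megabases from 31, 36, 50, 62 and 63 Mb hold 20, 14, 12, 22 and 32 protein-coding genes, and those from 8, 11 and 30 Mb hold 1 each. Over all genes the KO-only share was 6.99% and the WT-only share 3.51%, so the count is a description and shows no shortage. TPX2, DUSP15, TTLL9, DLGAP4, HRH3, FNDC11 and ZBTB46 had one in KO, and HELZ2 had one in WT. DLGAP4, a synaptic scaffold gene, had −log10 q 3.35, FNDC11 4.61 and ZBTB46, a zinc finger gene, 2.18. HELZ2, a helicase coactivator gene, had 3.66, with a KO summit 4352 bp away. The other summits of these megabases' excess were at genes marked in both lists or away from gene ends.

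The gene lists are small and were written with earlier results of these data known, so their counts are descriptions. Of 14 mitosis and spindle genes, 10 had a WT and 13 a KO end summit, and 9 had both. TPX2, AURKA, MAPRE1 and CHMP4B had one in KO only (4 of 14, beside 6.99% of all genes) and RAE1 in WT only (1 of 14, beside 3.51%). Shared members included CSE1L, a nuclear transport factor gene (27.1 in WT and 29.1 in KO), and UBE2C, an anaphase-promoting complex partner gene (6.40 and 16.0). KIF3B (a kinesin subunit) had 7.71 and 14.1. CENPB and CDC25B share 1 pair of summits between them.

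All 9 G1/S and replication genes had an end summit in both genotypes. E2F1, a transcription factor gene of the G1/S transition, had its summit at the same base, 33686244, in both lists (12.8 in WT and 15.5 in KO). PCNA, the replication clamp gene, had 8.46 and 18.7, with its summits 145 bp apart. Others were MCM8, GINS1, RBL1, TOP1, RTEL1 and SAMHD1, so this list held no single-genotype gene.

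Of the 11 ribosome, translation and proteasome genes, 10 had both summits and PSMF1 had neither. Of the 12 splicing and RNA processing genes, 10 had both, CTNNBL1 had one in WT only and CRNKL1 had neither. XRN2, a nuclear exonuclease gene of transcription termination, had 28.4 in WT and 35.3 in KO. DHX35 had 20.8 and 32.8. These 2 lists were occupied in nearly the same way in both genotypes.

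All 13 chromatin regulators lie on the long arm, and 11 of them had both summits. CHD6, a chromatin remodeller gene, had one in KO only (12.3), but a WT summit was 991 bp from it, and ZNF217 had neither. PHF20, a reader of histone methylation in an acetyltransferase complex, had 13.9 and 29.5 with summits 4 bp apart. NCOA6, a gene for a subunit shared by WDR5-containing MLL3 and MLL4 complexes, had 9.74 and 19.0. ASXL1, DNMT3B, MRGBP and ADNP were also marked in both.

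The developmental regulators were more mixed than the lists above. Of 27 genes, 17 had both summits (beside 46.45% of all genes) and 6 had neither, namely FOXA2, FOXS1, HNF4A, GATA5, VSX1 and MYT1. A KO end summit only was found at 2 of 27, near the 6.99% of all genes, and a WT one only at 2 of 27, beside 3.51%. PAX1 (1.53, rank 20584) and OVOL2 (4.35) had a KO end summit only, with the nearest WT summits 183188 and 79084 bp away. SALL4 (3.09) and BMP7 (17.0) had a WT end summit only, but KO summits were 409 and 890 bp from those. SNAI1 had 20.3 and 32.5, and NKX2-2 had 13.9 and 14.6.

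Tissue-restricted clusters of chromosome 20 were almost empty. The beta-defensin genes (13) and the BPI fold genes (10), which encode antimicrobial and lipid-binding secreted proteins, had no end summit in either genotype. Of 11 cystatin genes only CST3, the widely expressed cystatin C gene, had one (10.7 in WT and 20.5 in KO). Of 18 WFDC and seminogelin locus genes only WFDC3 had one. Of the 10 zinc finger ZNF genes 6 had both and 4 had neither. Together the 4 clusters had summits at 2 of 52 genes in each genotype, so they gave no part of the gene-level difference.

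Of the chromosome 20 WDR5 summits within 1 kb of a start site, most lay downstream of it in both genotypes. The promoter table gives 512 starts for 384 of the 537 genes. Within 1 kb of such a start lay 256 of 441 WT summits (58.0%) and 281 of 618 KO summits (45.5%). Their median position was 162 bp after the start in WT and 159 bp after it in KO, and 74.6% and 74.0% lay downstream.

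**Figure D4:**
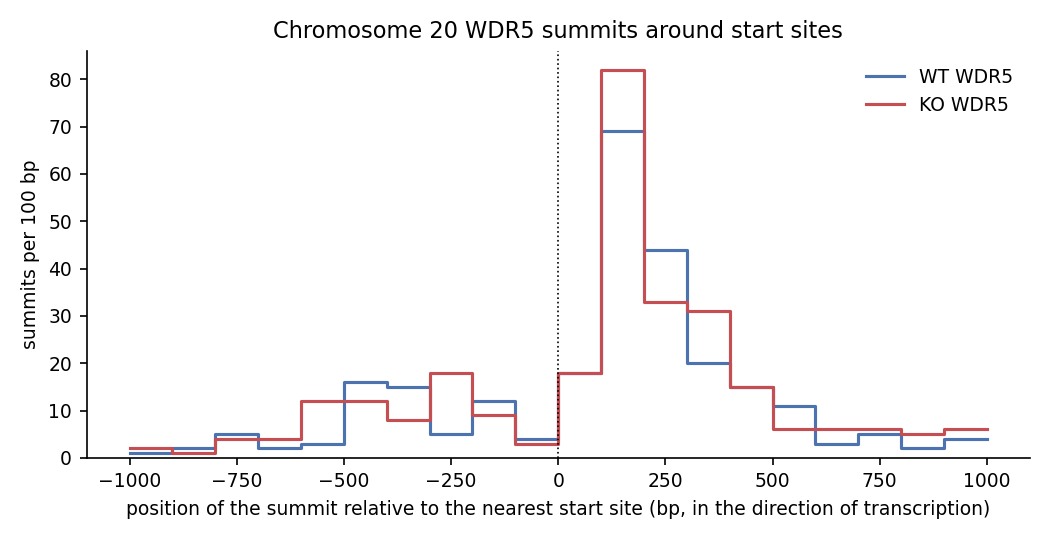
Chromosome 20 WDR5 summits per 100 bp around the nearest annotated start, in the direction of transcription, for WT and KO. Both profiles peak between 100 and 200 bp after the start, with 69 WT and 82 KO summits, and dip in the 100 bp before it, with 4 and 3.

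The peak of both profiles fell between 100 and 200 bp after the start, with 69 WT and 82 KO summits, and the 100 bp before the start held 4 and 3. Of the 273 KO summits without a WT partner, 58 (21.2%) lay within 1 kb of a start, compared with 223 of the 345 that had a partner (64.6%). The printed promoters fit that layout in part: the KO summit of SNRPB was 133 bp and that of BCL2L1 146 bp after the start, and that of SPATA2 was 118 bp before it.

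The authors' deposited list of transcripts that they named as EMBOW-dependent new WDR5 targets holds 420 transcripts of chromosome 20, with 323 distinct 5′ ends. Of the transcripts, 113 are on the short arm and 307 on the long arm. That is 78.2 listed transcripts per 100 protein-coding genes, against 86.5 on the other chromosomes, and chromosome 20 was 16th of 23. The 5′ end lay within 1 kb of a KO summit for 187 (44.5%) and of a WT summit for 10 (2.38%). Since the authors picked the list on these samples, it is not independent of the summit lists.

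Listed 5′ ends lay within 1 kb of 48 of the 273 unpaired KO summits (17.6%) and 8 of the 345 paired ones (2.32%). Of the 15 KO-only genes named above, 14 had a listed 5′ end at most 772 bp from the KO summit, TPX2, CHMP4B and MAPRE1 among them, and RAD21L1 did not. Over all 618 KO summits, 56 had a listed 5′ end within 1 kb.

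EMBOW-F summits were few on chromosome 20 and lay mostly away from WDR5 summits. With 127 of 93143 summits it had the fewest among chromosomes 1 to 22 and X after chromosome 17, which had 78. Not 1 of its 537 genes had an EMBOW-F end summit (upper limit 0.685%), beside 1.40% of genes on all chromosomes. Counted per summit, 0 of the 127 lay at a gene end (upper limit 2.86%), beside 0.379% on the other chromosomes, a share inside that interval. The absence at gene ends thus cannot be told apart from the low number of EMBOW-F summits. Distant sites, over 100 kb from each protein-coding gene, made up 103 of the 127 (81.1%, 73.2 to 87.5%), compared with 71.1% on the other chromosomes together. By chromosome this share ran from 44.9% on chromosome 19 to 97.6% on chromosome 22. It was also above that of chromosome 20 on chromosomes 13, 14, 16, 17 and 18, so it did not set chromosome 20 apart. On chromosome 20 a further 18 lay between genes and 6 inside genes.

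The EMBOW-F summits were gathered in a few blocks. From 28 to 32 Mb, beside and within the gene-free gap, lay 75 (59.1%, 50 to 67.7%), including 21 of the 25 with a q of 1e-05 or less. Smaller groups lay from 55 to 57 Mb (18 summits), from 6 to 8 Mb (9) and from 12 to 13 Mb (8). Only 19 of the 65 megabases held any, and of the 23 megabases with at least 10 genes only that from 31 Mb did.

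WDR5 numbers differed among the megabases rich in EMBOW-F. The megabases from 28, 29 and 30 Mb, with 15, 28 and 14 EMBOW-F summits, held 0, 1 and 5 WT and 3, 2 and 4 KO summits. That from 31 Mb, with 18 EMBOW-F summits, held 9 WT and 18 KO summits and was among the 5 with the largest KO excess. The megabases from 62 to 64 Mb, with the most WDR5 summits, held no EMBOW-F summit. Within 500 bp of a WDR5 summit of either genotype lay 8 EMBOW-F summits (6.30%, 2.76 to 12%), beside 0.876% over all chromosomes. Of these 8, 4 were near a WT and 4 near a KO summit.

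The strongest EMBOW-F summit of the chromosome, at 31068452 (−log10 q 20, rank 156), was 199 bp from a KO summit. A group of 3 at 28835444, 28839548 and 28841641 lay 44, 37 and 22 bp from 3 KO summits, which had −log10 q values of 4.33, 2.0 and 6.33. The nearest WT summit was at least 486101 bp away from these. The 4 EMBOW-F summits near WT summits were at 25912671, 30728401, 31060528 and 31064088, at distances of 102, 6, 47 and 9 bp. All 8 sites lay within or beside the gene-free gap, and all but that at 30728401 were over 100 kb from a protein-coding gene.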

How the data were processed

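Chromatin immunoprecipitation with sequencing was done in HEK293T cells, with 10 samples in the labels and 1 library per group. The submitters' processing notes name hg38 as the build and, without roles, MACS2 2.2.7.1, Bowtie2 2.4.5 and deepTools 3.5.1. The authors deposited summit lists of 1 bp intervals whose score has the form of MACS2's −log10 q, and no deposited value passes below that of a q of 0.05. Which input was used, and any pooling, are not given in the sources used here. Only 1 precipitation of tagged EMBOW is in the labels, so the EMBOW-F list was matched to the FLAG precipitation. H3K4me3 and input libraries were not analysed here. Read depth is unknown, and list length was not corrected for it.

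From these lists, summits were counted by chromosome, arm, megabase and gene. A partner is a summit of the other list within 500 bp. Gene ends are both ends (within 1 kb) of 20037 RefSeq protein-coding genes (GRCh38.p14, 537 on chromosome 20), because that table gives no strand. Starts with a strand came from the promoter table, for 384 of the 537. Ratios have exact 95% intervals from the KO share of summits, and quotients of 2 ratios have approximate log-normal 95% intervals from the same counts. Both kinds treat the WT and KO counts as independent. Partner and gene-end assignment was tested on simulated data (600 summits, 200 genes, 0 mismatches). Counts used pandas 2.3.3 and numpy 2.4.6 in Python 3.11.15, intervals scipy 1.17.1 and plots matplotlib 3.10.9.

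The members and lists were chosen with earlier results of these data known. Named genes were the 10 with the highest mean rank of a shared end summit, the 15 highest-ranked KO and up to 10 highest-ranked WT ones with no summit of the other genotype within 5 kb, genes with an EMBOW-F end summit, single-genotype genes of the 5 megabases with the largest difference (ties to the lower coordinate) and of those with more WT summits, and list members. The loci and genes described for summits away from gene ends were chosen after their values were seen. Alternatives were other partner distances, gene windows, bin sizes, a q of 1e-05 or less and a KO list shortened to 17660.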

Additional observations from a re-analysis of the deposited data

How the results depend on the processing

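There were no replicates, so leaving out a replicate was not run. No paired analysis was possible because each group has 1 library. With the KO list shortened by score to the WT length of 17660, the chromosome 20 ratio was 1.18, the share of megabases with more KO summits 55.4% and the long-arm ratio away from gene ends 1.66. Bins of 2 Mb gave a share of 87.5%. KO summits without a WT partner were 56.0% at 200 bp, 35.0% at 1000 bp, 23.5% at 5000 bp and 37.3% at a q of 1e-05 or less. WT summits without a KO partner were 38.3%, 10.9%, 5.44% and 15% under the same settings. KO-only genes numbered 59 at that q, and WT-only genes 25 with a window of 500 bp and 5 with one of 2 kb, without shares over all genes at those settings. EMBOW-F end summits were found at 1 gene with a window of 2 kb. EMBOW-F summits far from genes made up 89.8% at a distance of 50 kb and 92.0% at that q. The alternatives for the arms were added after the data had been seen. Among gene-end summits only, the quotient of the long-arm to the short-arm ratio was 0.968, below 1 where it was 1.26 over all summits, and the cause was not tested. Without 62 to 64 Mb the long-arm ratio away from gene ends was 2.34, without the PARD6B locus 2.32, and away from non-coding gene ends as well 2.50. The 23 other alternatives stayed within the limits set for the main values, those 3 among them. Depth is unknown, so which differences a deeper library would add cannot be stated.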
